A study of Orbicella faveolata with 18 samples.

Results

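Of the 1218 cDNA clones with values on the arrays, 3 carry a histone name: histone H3.3 (clone AOSF1219), histone H2A.V (AOSF622) and histone H1.0-A (AOSB632). They were taken by their clone identifiers and described over all 6 conditions of the study. The names rest on sequence similarity found by the authors, and they come from a list of clones that the study reported as changed with temperature. A difference between temperatures in a clone with a name is therefore not independent of how the clone came to be named. The difference between time points was not used for that list.

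Histones package DNA. A nucleosome holds DNA wrapped around a core of H2A, H2B, H3 and H4, and linker histones of the H1 family bind where the DNA enters and leaves it. Most core histone mRNA of animals is made during DNA replication and lacks a poly(A) tail, while replacement variants are made outside of it from polyadenylated mRNA. H3.3 is the replacement form of H3 and is placed at transcribed genes and, in mammals, at telomeric and pericentric repeats. H2A.V is a name used for members of the H2A.Z family, which mark nucleosomes at gene starts. H1.0 is a linker histone that in vertebrates builds up in cells that stop dividing and differentiate. Early animal embryos draw on maternal stores of histone mRNA for their rapid divisions. The RNA was amplified with a kit that starts at the poly(A) tail.

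Embryos of the reef-building coral Montastraea faveolata, free of algal symbionts and pooled from gametes of several colonies, were kept at 27.5, 29.0 or 31.5°C and sampled 48 and 12 hours after fertilization. Warmer temperatures were compared with 27.5°C within each time point, and 48 hours with 12 hours at each temperature. All embryos were fertilized at 1 common temperature, between 29.0 and 31.5°C, and moved to their own shortly afterwards. Each of the 6 conditions was 1 RNA isolation from pooled whole embryos, hybridised on 3 technical arrays against a common reference RNA, so that no RNA replicate exists within a condition. Embryonic stage and temperature cannot be told apart at a fixed hour, and in whole embryos fewer cells that hold a transcript and less of it per cell cannot be told apart either.

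Values are log2 ratios of the sample over the reference. A log2 ratio of 0 means the same signal in both, and ratios of different clones do not compare their mRNA levels. All 3 histone clones had a value on all 18 arrays, whereas the arrays of 27.5°C after 12 hours lacked 79 to 241 clones and any other array at most 26. Of the 18 arrays, 4 stand apart. Replicates 1 and 2 of 27.5°C after 12 hours carried another image-analysis session number than the other 16 arrays. The session of those 16 is called the first below. Replicate 1 of 31.5°C after 12 hours correlated with its companions by 0.58 and 0.60. Replicate 1 of 29.0°C after 48 hours correlated with its companions by 0.60 and 0.70. Replicate 3 of 27.5°C after 12 hours, with 0.68 and 0.82, was not counted among the 4. The residual SD of the arrays around the 6 condition means was 0.099 for H3.3, 0.14 for H2A.V and 0.17 for H1.0-A, against a median of 0.20 over the 1099 clones with at least 2 arrays in every condition. Below, 2 conditions are called different when the 95% intervals of their means do not overlap. For a clone with all arrays this needs a log2 difference larger than a fixed limit, which was 0.25 for H3.3, 0.35 for H2A.V and 0.44 for H1.0-A. The limit covers the spread between technical arrays only.

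H3.3 was high in young embryos, low in older ones, and lower the warmer the embryos were at both ages. After 48 hours the 3 arrays of 27.5°C gave log2 ratios of -0.92, -0.91 and -0.95, those of 29.0°C gave -1.45, -1.27 and -1.38, and those of 31.5°C gave -2.10, -1.98 and -1.83. After 12 hours the values were 1.82, 1.97 and 1.98 with embryos of 27.5°C, 1.47, 1.59 and 1.77 with those of 29.0°C, and 0.99, 0.98 and 0.98 with those of 31.5°C. No array of one condition lay within the range of another. The means after 48 hours were -0.92 ± 0.020 at 27.5°C, -1.37 ± 0.092 at 29.0°C and -1.97 ± 0.14 at 31.5°C. Those after 12 hours were 1.93 ± 0.091, 1.61 ± 0.15 and 0.98 ± 0.0055 at the same temperatures (SD, n = 3 arrays). When the 6 means were put in order, each of the 5 steps between neighbours was larger than the limit of 0.25. The steps within a time point were between 0.31 and 0.63, and the step between the highest mean after 48 hours and the lowest after 12 hours was 1.91.

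H2A.V was also high after 12 hours and low after 48 hours, but its spread with temperature was seen after 48 hours. After 48 hours the arrays gave -1.08, -0.74 and -1.01 at 27.5°C, -1.83, -2.21 and -2.28 at 29.0°C, and -2.77, -2.84 and -2.64 at 31.5°C. After 12 hours they gave 0.70, 0.58 and 0.66 at 27.5°C, 0.34, 0.47 and 0.41 at 29.0°C, and 0.58, 0.69 and 0.67 at 31.5°C. The arrays of the 3 temperatures were fully separate after 48 hours, and those of 31.5 and 27.5°C overlapped after 12 hours. The means after 48 hours were -0.94 ± 0.18 at 27.5°C, -2.11 ± 0.25 at 29.0°C and -2.75 ± 0.0998 at 31.5°C (SD, n = 3 arrays), with every step past the limit of 0.35. The means after 12 hours were 0.65 ± 0.063 at 27.5°C, 0.40 ± 0.064 at 29.0°C and 0.65 ± 0.059 at 31.5°C (SD, n = 3 arrays), and none of these differed from another by more than the limit. On each of the 6 arrays of 31.5 and 29.0°C after 48 hours, H2A.V had the lowest ratio to the reference of all clones measured on that array, 1192 to 1218 clones.

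The linker histone H1.0-A had another order. After 48 hours its arrays gave -0.94, -0.89 and -1.11 at 27.5°C, -0.98, -0.38 and -0.40 at 29.0°C, and 0.0028, -0.071 and -0.14 at 31.5°C. After 12 hours they gave 0.99, 1.31 and 1.33 at 27.5°C, 1.66, 1.56 and 1.76 at 29.0°C, and 0.74, 0.85 and 0.78 at 31.5°C. Replicate 1 of 29.0°C after 48 hours, 1 of the 4 arrays that stand apart, lay among the values of 27.5°C and away from its own 2 companions. The means after 48 hours were -0.98 ± 0.11 at 27.5°C, -0.59 ± 0.34 at 29.0°C and -0.071 ± 0.074 at 31.5°C. Those after 12 hours were 1.21 ± 0.19, 1.66 ± 0.097 and 0.79 ± 0.058 at the same temperatures (SD, n = 3 arrays). In the order of the 6 means, 31.5°C was thus the highest of the older embryos and the lowest of the younger ones. The steps between 29.0 and 27.5°C after 48 hours, 0.39, and between 31.5 and 27.5°C after 12 hours, 0.42, were below the limit of 0.44, and the other 3 steps were above it.

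**Figure D1:**
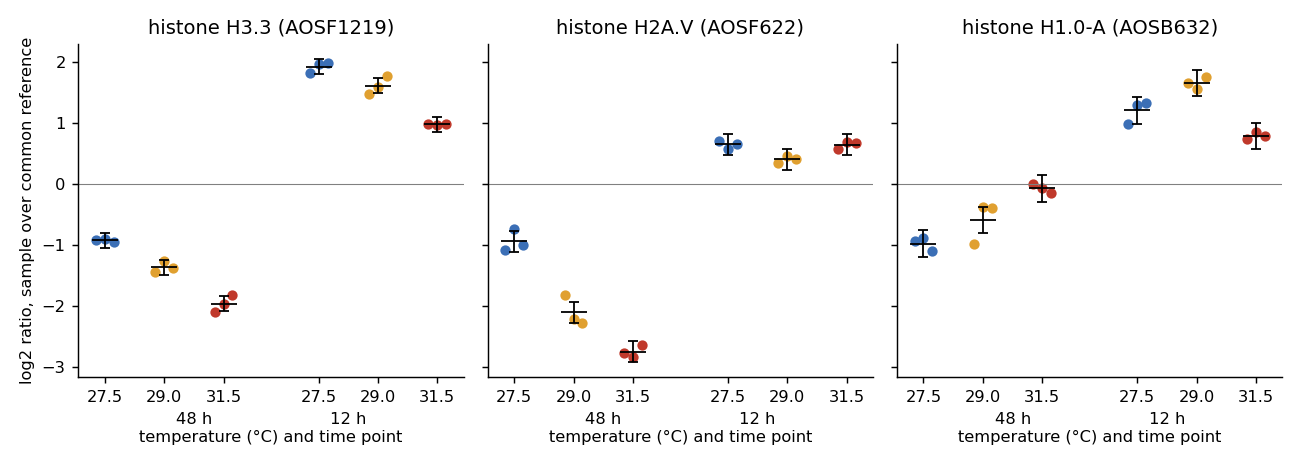
Log2 ratio of sample over common reference (y axis) of the 3 histone clones by temperature in °C and time point (x axis). Points are the 3 technical arrays of each condition, horizontal bars their mean and error bars its 95% interval from 1 residual spread per clone. H3.3 steps down with temperature at both time points and H2A.V after 48 hours. The means of H1.0-A after 48 hours are -0.98, -0.59 and -0.071, of which 31.5°C is apart from the other two.

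The range between the highest and the lowest condition mean was 3.89 for H3.3, a 14.8-fold ratio and rank 7 of the 1099 clones. For H2A.V it was 3.40, 10.6-fold and rank 12, and for H1.0-A 2.64, 6.23-fold and rank 29. The median range over all clones tested was 0.83, or 1.77-fold. All 3 histone clones thus lay among the 29 clones of widest range. Between the highest mean after 48 hours and the lowest after 12 hours lay a gap of 1.91 for H3.3. It was 1.34 for H2A.V and 0.86 for H1.0-A. This gap is the smallest distance between the time points over any temperatures. It does not split a range into a part for time and a part for temperature. Differences between the time points at a fixed temperature are given next.

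All 3 clones were lower after 48 hours than after 12 hours at every temperature. At 27.5°C the log2 difference, 48 hours minus 12 hours, was -2.85 for H3.3 (7.21-fold lower), -1.59 for H2A.V (3.01-fold lower) and -2.19 for H1.0-A (4.56-fold lower). All 3 passed their limits, as did 20.8% of all clones tested in that direction. At 29.0°C the differences were -2.98 for H3.3 (7.87-fold lower), -2.51 for H2A.V (5.70-fold lower) and -2.25 for H1.0-A (4.75-fold lower). Again all 3 passed, beside 23.1% of all clones. At 31.5°C they were -2.95 for H3.3 (7.72-fold lower), -3.40 for H2A.V (10.6-fold lower) and -0.86 for H1.0-A (1.82-fold lower), and all 3 passed, beside 15.2% of all clones.

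The clones differed in how this fall varied with temperature. The fall of H3.3 lay between -2.98 and -2.85 at all 3 temperatures, and it had ranks 2, 1 and 2 among the falls of the 1099 clones at 27.5, 29.0 and 31.5°C. The fall of H2A.V was larger the warmer the embryos, with ranks 31, 3 and 1. The fall of H1.0-A was smallest at 31.5°C, with ranks 11, 8 and 93.

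With RNA samples rather than arrays as units, the 3 samples of 48 hours were set against the 3 of 12 hours with temperature as a factor in limma, and p-values were adjusted over the 1099 clones (Benjamini-Hochberg). H3.3 was lower by a log2 difference of -2.93 ± 0.17 (SE), 7.60-fold, with an adjusted p of 7.56e-06 in limma, and this was the largest fall of all clones tested. H2A.V differed by -2.50 ± 0.29 (SE), 5.66-fold, with an adjusted p of 0.00027 in limma and rank 5. H1.0-A differed by -1.77 ± 0.27 (SE), 3.40-fold, with an adjusted p of 0.00099 in limma and rank 17. In this fit 17.2% of all clones tested were called lower after 48 hours and 20.7% higher. No condition had a replicate RNA sample, so the p-values of this fit rest on how the time difference varied between temperatures.

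**Figure D2:**
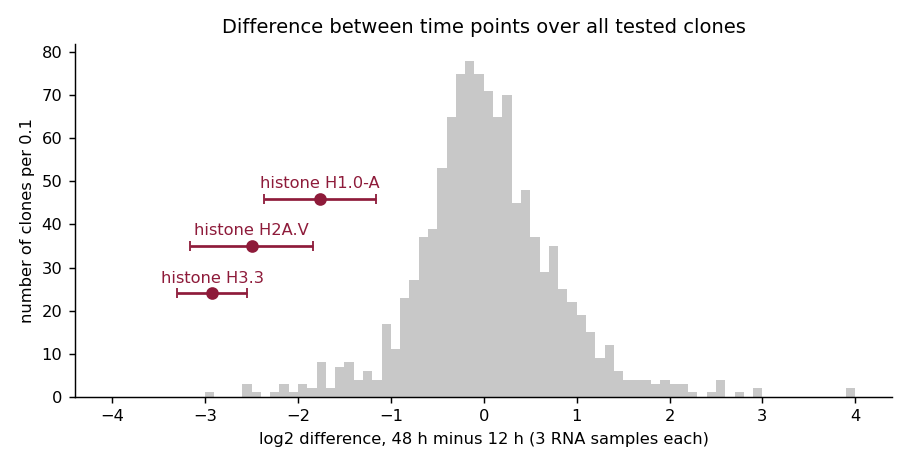
Number of the 1099 tested clones (y axis, bins of 0.1) by their log2 difference between 48 and 12 hours over the 3 RNA samples of each time point (x axis). The histone clones are marked at arbitrary heights with the 95% confidence interval of the limma fit. All 3 lie in the left tail, at -2.93 for H3.3, -2.50 for H2A.V and -1.77 for H1.0-A.

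After 48 hours the core histone variants were lower at both warmer temperatures, and the linker histone was higher at 31.5°C. At 29.0 against 27.5°C, H3.3 differed by -0.44 (1.36-fold lower) and H2A.V by -1.17 (2.24-fold lower). H2A.V had the largest fall of the 1099 clones in this comparison. Both passed their limits, as did 5.19% of all clones in that direction. H1.0-A differed by 0.39, which did not pass its limit of 0.44, and its arrays overlapped. Without replicate 1 of 29.0°C, its difference was 0.59 and passed.

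At 31.5 against 27.5°C after 48 hours, all 3 histone clones passed their limits and the arrays were separate. H3.3 differed by -1.04 (2.06-fold lower, rank 20 of the falls) and H2A.V by -1.81 (3.51-fold lower), the largest fall of all clones tested. H1.0-A differed by 0.91 (1.88-fold higher, rank 26 of the rises). In this comparison 14.6% of all clones passed as lower and 8.64% as higher, and 68.8% of the 918 clones present on all arrays had separate arrays, so that the separation alone did not set the histone clones apart. Between 31.5 and 29.0°C the differences were -0.60 for H3.3, -0.65 for H2A.V and 0.52 for H1.0-A. Each passed its limit, beside 11% of all clones called lower and 6.92% called higher. The arrays of the 2 temperatures were separate in 49.2% of the 918 clones there, and in 26.9% of them at 29.0 against 27.5°C. When every array was scaled to the same spread, the difference of H2A.V between 31.5 and 29.0°C was -0.57 and that of H3.3 between 29.0 and 27.5°C was -0.35, and neither passed. The difference of H1.0-A between 31.5 and 29.0°C was 0.32, still past its limit, without replicate 1 of 29.0°C, and it fell short without replicate 1 of 31.5°C (0.48) or with the spread taken from these 2 conditions (limit 0.79). On linear ratios H3.3 passed in none of the 3 comparisons after 48 hours, and H2A.V and H1.0-A did not pass between 31.5 and 29.0°C.

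After 12 hours H3.3 was again lower in warmer embryos. Its differences were -0.31 at 29.0 against 27.5°C (1.24-fold lower), -0.94 at 31.5 against 27.5°C (1.92-fold lower, rank 19 of the falls) and -0.63 at 31.5 against 29.0°C, all past the limit of 0.25. In these comparisons 11.1%, 9.28% and 7.01% of all clones passed as lower. Its arrays were separate in all 3 comparisons, as were those of 31.9%, 23.6% and 44.7% of the 918 clones present on all arrays. The difference at 29.0°C fell short of the limit when replicate 1 of that temperature (-0.24) or replicate 3 of 27.5°C (-0.28) was left out. It also fell short with arrays scaled to the same spread (-0.22), and so did that between 31.5 and 29.0°C (-0.25).

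H2A.V did not pass its limit in any comparison after 12 hours. Its differences were -0.25 at 29.0 against 27.5°C, -0.0017 at 31.5 against 27.5°C and 0.24 at 31.5 against 29.0°C. A difference below the limit of 0.35 was not called, which does not show that it was absent. The 3 arrays of 29.0°C lay below all those of 27.5 and of 31.5°C, and the differences of 29.0°C from 27.5°C and of 31.5°C from 29.0°C passed when the spread was estimated from those 2 conditions only.

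H1.0-A was highest at 29.0°C after 12 hours. It was higher by 0.45 at 29.0 than at 27.5°C (1.37-fold), just past its limit, beside 6.82% of all clones called higher. This call was lost when any 1 of 13 of the 18 arrays was left out, and within the first image-analysis session, which holds 1 array of 27.5°C at this time point, the difference was 0.33. At 31.5 against 27.5°C it differed by -0.42, short of the limit of 0.44 although the arrays were separate. At 31.5 against 29.0°C it was lower by -0.87 (1.83-fold), rank 17 of the falls. H1.0-A and H3.3 passed as lower in that comparison, as did 7.01% of all clones.

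**Figure D3:**
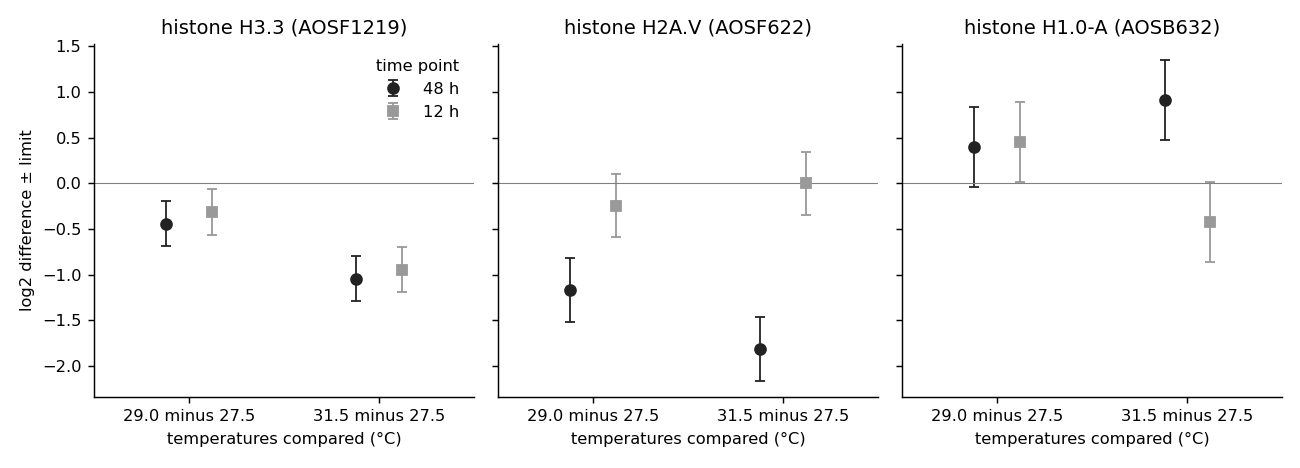
Log2 difference from 27.5°C (y axis) at 29.0 and 31.5°C (x axis) for the 3 histone clones, with circles for 48 hours and squares for 12 hours. Error bars are the limit, the sum of the half-widths of both 95% intervals, so a bar that misses 0 marks a called difference. The circles and squares of H3.3 lie close together, while those of H2A.V and H1.0-A lie apart at 31.5°C.

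Whether a temperature difference itself differed between the time points was tested in limma as the difference at 48 hours minus the difference at 12 hours. This test runs over technical arrays, so its p-values measure their spread and not that between RNA samples. For H3.3 the temperature differences at both ages were -0.13 apart at 29.0°C (95% interval -0.45 to 0.19, adjusted p = 0.69 in limma) and -0.099 apart at 31.5°C (-0.42 to 0.22, adjusted p = 0.66 in limma). For H2A.V the fall was larger after 48 hours by -0.92 at 29.0°C (adjusted p = 0.013 in limma, n = 3 arrays per condition) and by -1.81 at 31.5°C (-2.19 to -1.43, adjusted p = 4.79e-06 in limma). For H1.0-A the difference was -0.058 at 29.0°C (-0.49 to 0.38, adjusted p = 0.91 in limma), and 1.33 at 31.5°C (0.89 to 1.76, adjusted p = 0.00035 in limma). Over all clones 3% were called for 29.0°C and 24.7% for 31.5°C. At 31.5°C the change of H2A.V was thus more negative after 48 hours than after 12 hours and that of H1.0-A more positive, while for H3.3 no difference was detectable within intervals that reach to -0.45. With arrays scaled to the same spread, the value of H2A.V at 29.0°C was -1.03 with an adjusted p of 0.12 in limma.

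With both time points in 1 fit and RNA samples as units, 2 samples of each temperature were compared with the time point as a factor. Here too the p-values rest on how differences varied between conditions, not on replicate RNA samples. H3.3 was lower at 31.5 than at 27.5°C by -0.99 ± 0.21 (SE), in 2 of 2 time points, with an unadjusted p of 0.00084 and an adjusted p of 0.15 in limma. H2A.V differed by -0.91 ± 0.36 (SE) with an adjusted p of 0.69, and H1.0-A by 0.25 ± 0.33 (SE) with an adjusted p of 0.92, both in limma. At 29.0 against 27.5°C the differences were -0.38 ± 0.21 for H3.3, -0.71 ± 0.36 for H2A.V and 0.42 ± 0.33 for H1.0-A (SE), each with an adjusted p of 0.98 in limma. No clone of the 1099 passed in either comparison (0%), while 67 had an unadjusted p under 0.05 in limma at 31.5°C and 33 at 29.0°C. With limma's prior spread fitted to each clone's mean log2 ratio, H3.3 passed at 31.5°C with an adjusted p of 0.019. Without the RNA sample of 31.5°C after 12 hours, the values in limma were -1.01 for H3.3, -1.58 for H2A.V and 0.92 for H1.0-A, and all 3 passed, as did 124 of the 1099 clones. Without that of 31.5°C after 48 hours only H3.3 of the 3 passed, with -0.97, among 36 clones. Both fits leave 1 sample of 31.5°C, which is assumed to vary like the other samples, so that they mainly restate the difference at the remaining time point.

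H1.0-A carries the clone prefix AOSB, and the median of the 75 tested clones with this prefix, itself included, had the sign of H1.0-A in 8 of the 9 comparisons of 2 conditions. Their median log2 difference was 0.045 at 29.0 against 27.5°C, 0.23 at 31.5 against 27.5°C and 0.18 at 31.5 against 29.0°C after 48 hours. After 12 hours it was 0.31, 0.087 and -0.30 in the same comparisons, where H1.0-A had 0.45, -0.42 and -0.87. Between 48 and 12 hours the AOSB median was -0.51 in embryos of 27.5°C, -0.87 in those of 29.0°C and -0.19 in those of 31.5°C. H1.0-A lay below the middle 90% of the AOSB clones in 3 comparisons, at 31.5 against 29.0°C after 12 hours and between the time points at 27.5 and 29.0°C, and above it in none. The 501 clones with the prefix AOSF, to which H3.3 and H2A.V belong, had medians between -0.11 and 0.17. The part of the clone set in the values of H1.0-A was not tested.

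Other clones whose names point to chromatin were described as a list of 7, taken from the same table of names. That table names only clones that the study reported as changed with temperature. The temperature calls and medians of the list are therefore not independent of its choice. The shares over all clones are no like-for-like background for them, and the same holds for the second list below. It holds ATRX, which in mammals helps to place H3.3 at repeats, the remodelling helicase Chromodomain-helicase-7, a PHD-bromodomain transcription regulator, UHRF1, which in mammals binds newly replicated DNA that is methylated on 1 strand, the DNA-binding protein HMG-I and HMG-Y, INCENP of the chromosomal passenger complex, and subunit 3 of DNA polymerase epsilon, a histone-fold protein. At 31.5 against 27.5°C after 48 hours, 3 of the 7 rose and none fell, with a list median of 0.38 against -0.0055 over all clones, of which 8.64% passed as higher and 14.6% as lower. ATRX (AOSB947) rose by 0.75, UHRF1 (AOSB949) by 0.91 and DNA polymerase epsilon subunit 3 (AOSB437) by 0.58, just past its limit of 0.57. These rises had the direction of H1.0-A and not of H3.3 and H2A.V, and 6 of the 7 clones share the AOSB prefix with it, of whose 75 clones 18 passed as higher in this comparison.

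Between 29.0 and 27.5°C after 48 hours, 1 of the 7 fell, Chromodomain-helicase-7 (AOSB771) by 0.65, beside 5.19% of all clones called lower. After 12 hours 1 rose, the PHD-bromodomain regulator (AOSB586, 0.77), and 1 fell, HMG-I and HMG-Y (CAOO618, -0.47). There 6.82% of all clones passed as higher and 11.1% as lower. At 31.5 against 27.5°C after 12 hours INCENP (AOSB594) was lower by -0.53, beside 9.28% of all clones called lower, and the other 6 did not pass. Between 31.5 and 29.0°C, ATRX, Chromodomain-helicase-7 and UHRF1 were higher after 48 hours, by 0.76, 1.03 and 0.71, beside 6.92% of all clones and 12 of the 75 AOSB clones. After 12 hours 1 was higher and 3 were lower in that comparison, in which 10% of all clones passed as higher and 7.01% as lower, and 15 of the AOSB clones as lower.

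Between 48 and 12 hours the list split. At 27.5°C ATRX (-0.91), UHRF1 (-0.90), INCENP (-0.89) and DNA polymerase epsilon subunit 3 (-0.89) fell, and the PHD-bromodomain regulator rose by 0.47, beside 20.8% of all clones called lower and 24.7% called higher. At 29.0°C the same 4 clones fell by 1.05 to 1.23, and HMG-I and HMG-Y rose by 0.57, beside 23.1% of all clones called lower and 26.2% called higher. The 4 falling clones are all AOSB clones, of which 34 of 75 passed as lower at 27.5°C and 46 of 75 at 29.0°C. At 31.5°C none of the 7 passed, with values between -0.21 and 0.33, whereas all 3 histone clones passed there. Of all clones 15.2% were called lower and 20.7% called higher at that temperature. The list medians were -0.89, -1.05 and 0.042 at 27.5, 29.0 and 31.5°C, against 0.00056, -0.030 and 0.044 over all clones. Over RNA samples ATRX (-0.78, adjusted p = 0.019) and DNA polymerase epsilon subunit 3 (-0.68, adjusted p = 0.034) passed in limma. INCENP (-0.66, adjusted p = 0.044) also passed in limma, beside 17.2% of all clones called lower. UHRF1 had -0.65 with an adjusted p of 0.054 in limma.

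A second list of 7 clones held the other names filed under DNA: mitochondrial DNA topoisomerase I, which relaxes DNA, a pair of Pol-like clones and 4 reverse transcriptases, which stem from mobile elements. At 31.5 against 27.5°C after 48 hours 1 of the 7 rose, topoisomerase I (CAON1314) by 0.62, and none fell, beside 8.64% of all clones called higher and 14.6% called lower. After 12 hours the reverse transcriptases AOSF1088 (-0.63) and AOSF1473 (-0.86) fell and CAON1787 (0.74) rose. In that comparison 7.46% of all clones passed as higher and 9.28% as lower. CAON1787 barely passed its limit (0.745 against 0.743), its arrays overlapped, and it had 2 arrays at 27.5°C. At 29.0 against 27.5°C the Pol-like clone AOSF929 rose by 0.56 after 48 hours, as one of the 2.64% of clones called higher. The Pol-like clone AOSF774 fell by 0.83 after 12 hours, beside 11.1% of all clones called lower. It had 2 arrays in each of these 2 conditions. Between the time points 3 of the 7 fell at 27.5°C, beside 20.8% of all clones called lower. At 31.5°C 3 rose and 1 fell, beside 20.7% of all clones called higher and 15.2% called lower. The list median at 31.5°C between the time points was 0.39, against 0.044 over all clones and -2.95 over the 3 histone clones.

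**Figure D4:**
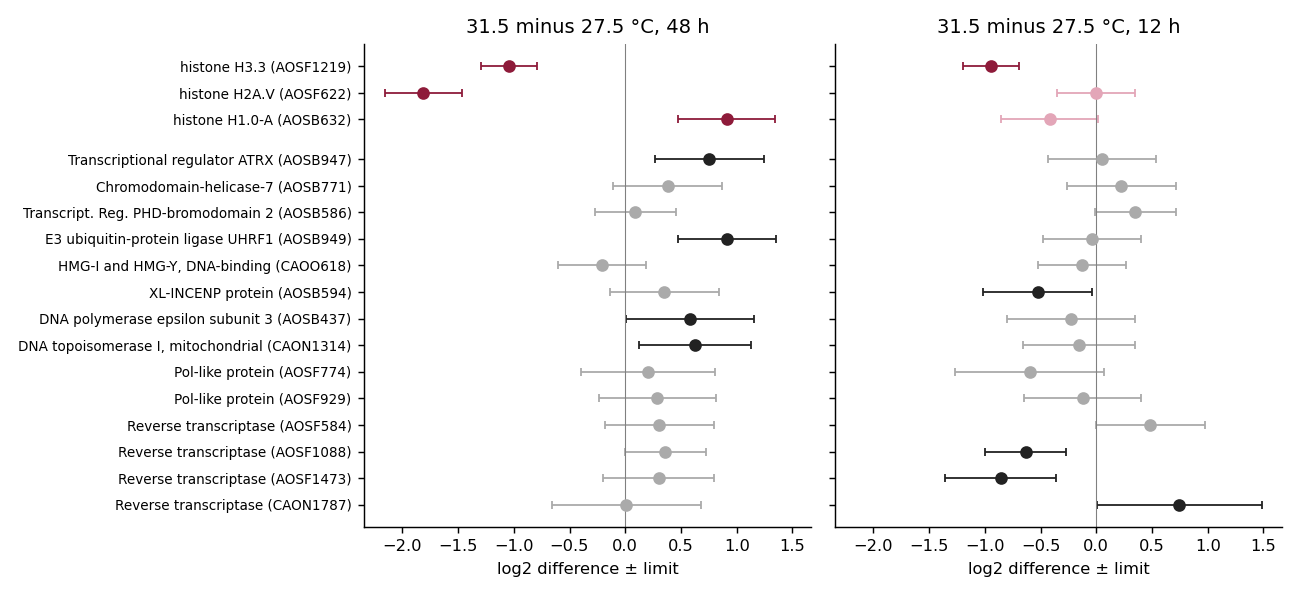
Log2 difference between 31.5 and 27.5°C with its limit (x axis) for the 3 histone clones (top), the 7 chromatin clones and the 7 other DNA clones, after 48 hours (left) and 12 hours (right). Dark symbols passed the limit and pale ones did not. After 48 hours H3.3 and H2A.V lie at -1.04 and -1.81, while no clone of the other lists lies below -0.21.

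The likeness of 2 clones over the 6 conditions was measured as the root mean square difference of their condition means, each centred on the clone's own mean. H3.3 and H2A.V were 0.45 apart on the log2 scale, and H1.0-A was 0.84 from H3.3 and 0.93 from H2A.V. The median distance to all tested clones was 1.53 from H3.3, 1.37 from H2A.V and 0.96 from H1.0-A. Nearest to H3.3 were AOSF1165 (0.41), H2A.V (0.45) and CAON395 (0.45), and nearest to H2A.V were AOSF1233 (0.39), CAON395 (0.43) and H3.3 (0.45). So each core variant was among the 3 nearest clones of the other. AOSF1165 and AOSF1233 have no informative name in the list used, and CAON395 has none. Nearest to H1.0-A were AOKF388 (0.21), the senescence-associated protein clone CAOO703 (0.22) and AOSF752 (0.24). These distances describe 6 condition means and have no test.

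The nearest clones did not follow the core variants in every condition. After 48 hours the centred means of H3.3 were -0.97, -1.41 and -2.01 at 27.5, 29.0 and 31.5°C, while those of AOSF1165 were -1.32, -1.24 and -1.21. AOSF1165 shared the high values after 12 hours, with 1.69, 1.55 and 0.53 beside 1.88, 1.57 and 0.94 of H3.3. CAON395 had -1.05, -1.36 and -1.39 after 48 hours, where H2A.V had -0.26, -1.42 and -2.07.

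**Figure D5:**
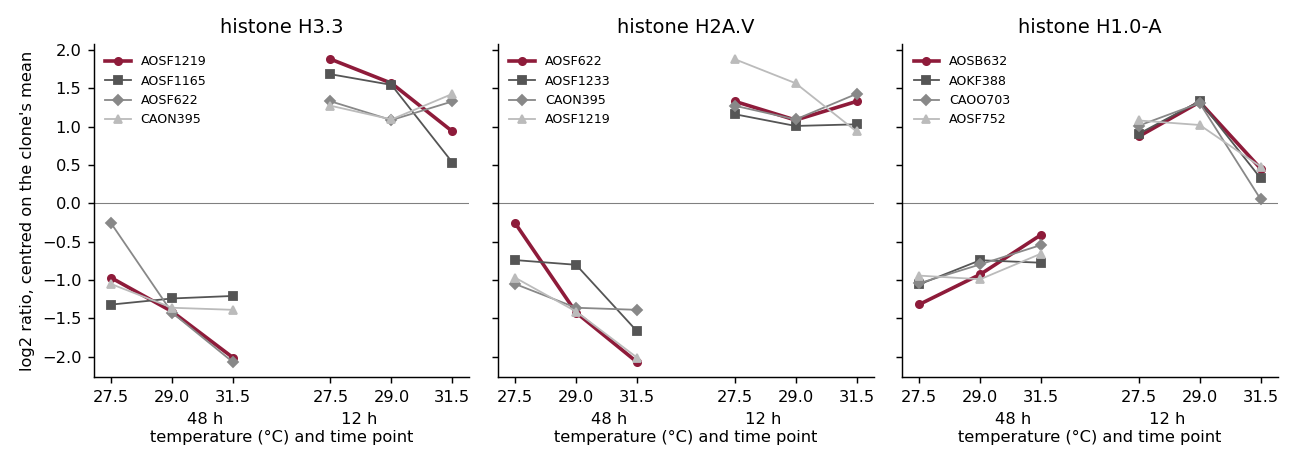
Condition means of each histone clone (thick line) and of the 3 clones nearest to it (thin lines), as log2 ratios centred on each clone's mean over the 6 conditions (y axis), by temperature in °C and time point (x axis). The lines of H1.0-A and its neighbours lie closest together, at distances of 0.21 to 0.24, against 0.39 to 0.45 for the other clones.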

How the data were processed

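Two-colour cDNA arrays were read from the series table, in which the authors deposited 1 log2 ratio per clone and array, sample (Cy5) over common reference (Cy3), after background subtraction in TIGR Spotfinder 2.2.4 and print-tip LOWESS in MIDAS. That the base is log2 was inferred. The spread of the deposited values exceeded the 0.69 of the scanner spread that natural logs would give on 13 of 18 arrays. The arrays below it were all of 48 hours. They were all 3 of 29.0°C (0.55, 0.34 and 0.59) and replicate 2 of 27.5°C (0.68) and of 31.5°C (0.55). The cause of these lower spreads was not tested. The deposited scanner intensity files hold unnormalized spots with grid positions and no clone identifiers. They were used only for the check of the base, spot numbers and image-analysis sessions. The reference RNA is a pool of time points by the labels and of all samples by the methods, and cancels between conditions. There was no dye swap.

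No further normalization was applied, since array medians lay between -0.084 and 0.050. Of 1218 clones, the 1099 with at least 2 arrays in every condition were tested. Each clone was fitted with a mean per condition and 1 common residual spread, which gave 95% intervals of the means, the linear-model form of the authors' criterion of intervals that do not overlap. RNA-level and time-by-temperature comparisons were fitted in limma 3.58.1 (R 4.3.3) over all 1099 clones with a Benjamini-Hochberg threshold of 0.05. Both were tested on simulated data. The number of arrays limits the precision. The histone clones, the lists and the tests were chosen with earlier results of these data known. Named clones are these 3, all clones of both lists, and the 3 nearest to each histone clone. Names come from the study's list of clones that changed with temperature, of which no fold change was used. Other scalings, filters, spreads and array or sample omissions were tried. Same-numbered arrays of different conditions did not deviate together (median correlation 0.015 over 45 pairs), so numbers were not used as pairs.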

Additional observations from a re-analysis of the deposited data

Results flagged for a closer look

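The temperature change of H2A.V (AOSF622) differed between 48 and 12 hours in limma over the technical arrays, by -0.92 at 29.0°C and by -1.81 at 31.5°C on the log2 scale, in both cases a larger fall after 48 hours. The temperature change of H1.0-A (AOSB632) at 31.5°C differed between the time points by 1.33, with a rise after 48 hours. Each condition was 1 RNA sample, so a difference between RNA samples of the same condition was not measured.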

How the results depend on the processing

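Over 42 values of the 3 histone clones and 1140 pairs of a value and an alternative, 1077 kept direction and call, 34 lost the call, 16 gained it and 13 changed sign. All differences between time points, at each temperature and over RNA samples, kept both. Centring arrays on their medians moved H1.0-A at 29.0 against 27.5°C to 0.41 after 12 hours, short of the limit, and its change between time points to 0.0063. Scaling arrays to the same spread took the call from H3.3 at 29.0 against 27.5°C after 48 hours (-0.35) and 12 hours (-0.22), H3.3 at 31.5 against 29.0°C after 12 hours (-0.25), H2A.V at 31.5 against 29.0°C after 48 hours (-0.57), H1.0-A at 29.0 against 27.5°C after 12 hours (0.30), and the change of H2A.V at 29.0°C between time points (-1.03, adjusted p = 0.12 in limma). It gave a call to H1.0-A at 29.0 against 27.5°C after 48 hours (0.62) and other signs to H2A.V at 31.5 against 27.5°C after 12 hours (0.12) and to the uncalled change of H1.0-A at 29.0°C between time points (0.32). With the first image-analysis session only, H1.0-A at 29.0 against 27.5°C after 12 hours had 0.33, uncalled, and its change at 29.0°C between time points 0.065.

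Without the 4 arrays that stand apart, an alternative chosen after seeing the data, H1.0-A was called at 29.0 against 27.5°C after 48 hours (0.59) and at 31.5 against 27.5°C after 12 hours (-0.52), H3.3 was not called at 29.0 against 27.5°C after 12 hours (-0.37), and H2A.V at 31.5 against 27.5°C after 12 hours (0.018) and the change of H1.0-A at 29.0°C (0.26) changed sign. With the spread taken from the 2 conditions compared, H1.0-A at 31.5 against 29.0°C after 48 hours (0.52) and at 29.0 against 27.5°C after 12 hours (0.45) and H3.3 at 29.0 against 27.5°C after 12 hours (-0.31) lost the call, and H2A.V after 12 hours gained it at 29.0 against 27.5°C (-0.25) and at 31.5 against 29.0°C (0.24). On linear ratios H3.3 after 48 hours lost all 3 calls (-0.44, -1.04 and -0.60). H2A.V (-0.66) and H1.0-A (0.49) lost theirs at 31.5 against 29.0°C at that age. After 12 hours H2A.V gained the call at 29.0 against 27.5°C (-0.25) and at 31.5 against 29.0°C (0.24). H1.0-A gained it after 12 hours at 31.5 against 27.5°C (-0.43). In limma over the technical arrays H3.3 at 29.0 against 27.5°C after 12 hours had -0.31 with an adjusted p of 0.054.

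At 31.5 against 27.5°C over RNA samples, H1.0-A changed sign without the sample of 27.5°C after 48 hours (-0.072) or of 31.5°C after 48 hours (-0.43). In limma H3.3 passed without either sample of 31.5°C (-0.97 and -1.01, adjusted p of 0.013 and 0.0035) and with a trended prior (-0.99), and H2A.V (-1.58) and H1.0-A (0.92) passed without that of 12 hours.

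Leaving out 1 array changed a call or a sign in 7 values. H1.0-A at 29.0 against 27.5°C lay between 0.29 and 0.59 after 48 hours and between 0.34 and 0.51 after 12 hours, at 31.5 against 29.0°C after 48 hours between 0.32 and 0.62, and at 31.5 against 27.5°C after 12 hours between -0.53 and -0.36. Its change at 29.0°C between time points lay between -0.16 and 0.14. H3.3 at 29.0 against 27.5°C after 12 hours lay between -0.40 and -0.24, and H2A.V at 31.5 against 27.5°C after 12 hours between -0.036 and 0.032. Clones called for a change between time points numbered 11 to 107 at 29.0°C and 164 to 315 at 31.5°C, against 33 and 272 with all arrays, and 358 and 478 without the 4 arrays. Clones called between time points over RNA samples numbered 204 to 601 when 1 RNA sample was left out, against 417. With the array number as a replicate block, no call of the histone clones changed, the changes of H2A.V were again -0.92 and -1.81, and 32 and 264 clones were called. Array normalizations from scanner intensities were not run, since spots carry no clone identifiers. The causes of these changes were not tested.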
